A study of Mus musculus with 2 samples.

Results

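The miR-99/100, let-7 and miR-125 genes of the mouse lie in 3 paralogous clusters, and their reads were examined in small RNA libraries of C2C12 cells. The 8 listed genes, of 2202 miRNA genes in each table, were taken by symbol. They are Mir99a, Mirlet7c-1 and Mir125b-2 of the cluster on chromosome 16, Mir100, Mirlet7a-2 and Mir125b-1 of the cluster on chromosome 9, and Mir99b and Mir125a of the cluster on chromosome 17. All 8 were found in the GENCODE M21 annotation. Mirlet7e, which lies between Mir99b and Mir125a, is not on the list and is given beside the 8 genes so that the let-7 position can be compared in all 3 clusters.

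C2C12 is an established myoblast line from injured thigh muscle of C3H mice, obtained from ATCC, which grows as single cells and can fuse into myotubes. The study made 2 microRNA-seq libraries from total RNA, limited to RNA shorter than 30 nucleotides and labelled as biological replicates 1 and 2 of 1 group. The labels give no culture stage, treatment or genotype change, so the data hold no contrast between conditions. Both replicates come from the same line. The p-values below ask only whether a difference between these libraries exceeds counting noise, and they depend on depth.

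In each cluster a miR-99/100 gene comes first, a let-7 gene second and a miR-125 gene last. The miR-99/100 family is known to repress parts of the insulin-like growth factor and mTOR pathway. The let-7 family represses Lin28, Hmga2 and Ras genes and is held back by the Lin28 proteins at the level of processing. miR-125 is the vertebrate relative of worm lin-4, is also known to repress Lin28, and has been studied in muscle as a repressor of Igf2. A miRNA acts mainly through its seed, bases 2 to 8 from the 5′ end, which pairs with target mRNAs.

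The 5p arms below, from RefSeq on GRCm38.p6, show which genes carry the same seed and which arms can be told apart by their letters. They are written 5′ to 3′ with the seed in capitals.
Mir99a, miR-99a-5p: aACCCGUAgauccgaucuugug
Mir100, miR-100-5p: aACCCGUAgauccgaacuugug
Mir99b, miR-99b-5p: cACCCGUAgaaccgaccuugcg
Mirlet7c-1, let-7c-5p: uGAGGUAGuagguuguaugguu
Mirlet7a-2, let-7a-5p: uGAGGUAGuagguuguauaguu
Mirlet7e, let-7e-5p: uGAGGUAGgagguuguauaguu
Mir125b-1 and Mir125b-2, miR-125b-5p: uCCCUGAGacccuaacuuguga
Mir125a, miR-125a-5p: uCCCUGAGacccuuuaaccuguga

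RefSeq lists the let-7a-5p arm under Mirlet7a-1, and the same letters stand in the Mirlet7a-2 hairpin. Counted from the 5′ end, with the base of the first-named arm first, miR-99a-5p and miR-100-5p differ by U16A alone. From miR-99a-5p to miR-99b-5p there are 4 differences, A1C, U11A, U16C and U21C, all outside the seed. From let-7c-5p to let-7a-5p the difference is G19A, and from let-7a-5p to let-7e-5p it is U9G. The miR-125a-5p arm has 24 bases against 22 for miR-125b-5p and shares its first 13 bases with it.

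The arms differ in how many genes could have produced them. Of the 9 genes, 5 have a 5p arm that was found in no other, non-overlapping miRNA gene of the annotation, namely Mir99a, Mir100, Mir99b, Mir125a and Mirlet7e. The other 4 share it with 1 more gene. Mir125b-1 and Mir125b-2 share miR-125b-5p with each other, Mirlet7c-1 shares let-7c-5p with Mirlet7c-2, and Mirlet7a-2 shares let-7a-5p with Mirlet7a-1. None of the 9 3p arms was found in a second miRNA gene. The 3p arms of the genes with a shared 5p arm, which do tell their loci apart, are shown next, again with bases 2 to 8 in capitals.
Mir125b-1, miR-125b-1-3p: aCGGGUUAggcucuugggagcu
Mir125b-2, miR-125b-2-3p: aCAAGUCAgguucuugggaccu
Mirlet7c-1, let-7c-1-3p: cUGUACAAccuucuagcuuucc
Mirlet7a-2, let-7a-2-3p: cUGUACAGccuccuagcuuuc

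Whole hairpins show how little a read must extend past the shared arm to become distinct. In the RefSeq hairpins of Mir125b-1 (chr9:41581926-41582002, plus strand) and Mirlet7c-1 (chr16:77599657-77599750, plus strand), the stretch shared with the other copy is in capitals.
Mir125b-1: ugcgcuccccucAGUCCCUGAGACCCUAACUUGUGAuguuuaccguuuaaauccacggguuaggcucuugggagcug
Mirlet7c-1: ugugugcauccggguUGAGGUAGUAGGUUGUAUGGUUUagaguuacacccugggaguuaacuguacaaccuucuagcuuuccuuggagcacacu

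The shared stretch is 24 bases in Mir125b-1, the 22 of the arm and 2 before it, so a read that continued into the loop by 1 templated base would already differ from Mir125b-2. It is 23 bases in Mirlet7c-1, the arm and 1 base after it. Reads that mapped to several places have a row of their own in the tables and made up 33.4% of the replicate 1 table and 22.8% of the replicate 2 table. All 3 count columns of a table summed to the same total, 55036610 reads in replicate 1 and 24569278 in replicate 2, as they would if each read were placed in a single row. A read of exactly the miR-125b-5p, let-7c-5p or let-7a-5p arm would then fall in that row, and the gene count would be a lower limit for the miRNA. The tables do not split a hairpin's reads by arm or length, so which reads make up the counts of these 4 genes was not tested.

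On mm10 all 9 hairpins lie on the plus strand, but the clusters differ in size. Mir99a (chr16:77598936-77599000), Mirlet7c-1 and Mir125b-2 (chr16:77646273-77646343) lie in introns of the noncoding host transcript Mir99ahg and span 47.4 kb. Only 656 bases separate Mir99a from Mirlet7c-1, while 46.5 kb separate Mirlet7c-1 from Mir125b-2, which also overlaps an exon of the unclassified transcript C130023A14Rik. Mir100 (chr9:41531425-41531504), Mirlet7a-2 (chr9:41536716-41536811) and Mir125b-1 span 50.6 kb in introns of the noncoding transcripts 3110039I08Rik and Gm49317. Mir125b-1 also overlaps an exon of the sense-intronic transcript Gm28119, and Mir100 an exon of Gm48742 on the other strand. Mir99b (chr17:17830188-17830257), Mirlet7e (chr17:17830352-17830444) and Mir125a (chr17:17830812-17830879) are packed into 692 bases of the protein-coding gene Spaca6, the first pair in an intron and Mir125a over an annotated exon. Only 94 bases separate Mir99b from Mirlet7e and 367 separate Mirlet7e from Mir125a.

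**Figure D1:**
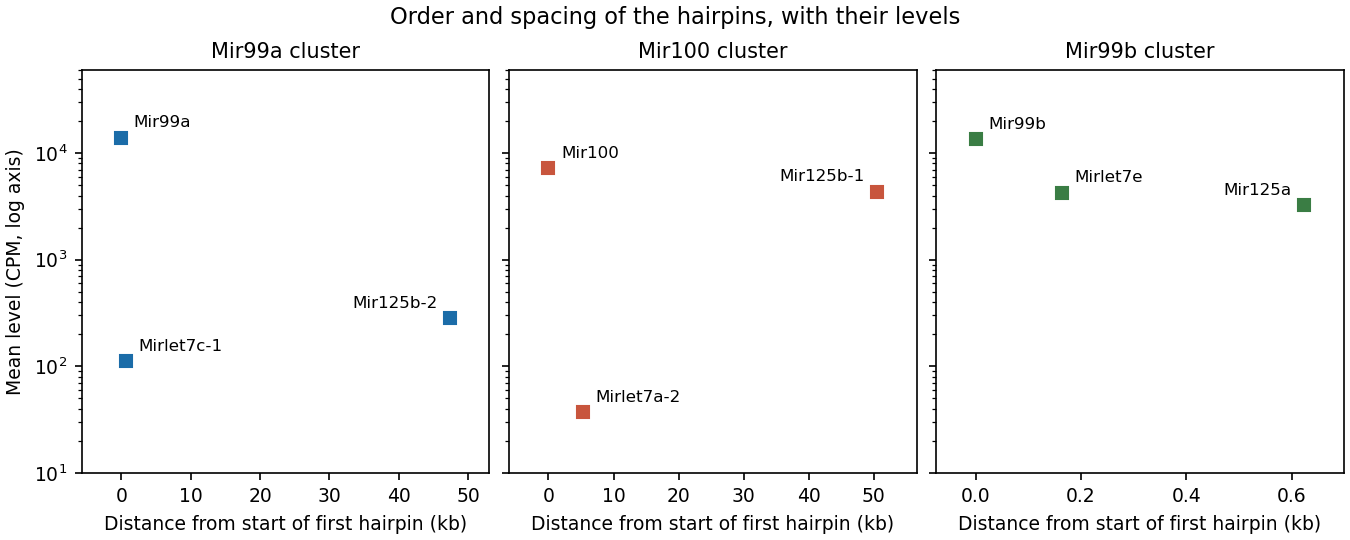
Each panel is a cluster, with the distance from the start of its first hairpin in kb (linear axis, different in each panel) against the mean level of the 2 libraries in CPM, counts per 1000000 reads on miRNA genes (log axis). The first gene is the highest in each panel, and the let-7 gene is the lowest in the Mir99a and Mir100 clusters but not in the Mir99b cluster.

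The library totals were 27661907 and 15025315 reads on the strand of a miRNA gene in replicates 1 and 2. Levels in CPM are relative to these totals and are not divided by hairpin length, because a read of this size class covers a whole miRNA arm. Mir21a alone took 23.1% of the total in replicate 1 and 53.5% in replicate 2, which by construction lowers the CPM of the other genes there. By these totals the median log2 ratio of replicate 2 over replicate 1 was -0.81 over the 556 genes tested below, so the CPM of most genes was lower in replicate 2. The muscle list of 11 genes, used to check the label, had 4 members that reached 1 CPM in each library and summed to 2657 and 1054 CPM, almost all of it Mir206. Its members Mir1a-1, Mir133a-1, Mir133a-2 and Mir208a were at 0. The neural list of Mir9 and Mir124a genes summed to 0.0723 and 0 CPM. The Mir1a, Mir133a, Mir9 and Mir124a genes are copies with a common mature arm, so their reads may stand in the row of reads that mapped to several places, and their low counts do not check the label. The blood list summed to 220 and 126 CPM, mostly Mir142, the endothelial gene Mir126a had 213 and 134 CPM, the epithelial list 12.4 and 8.45 CPM and the liver gene Mir122 3.90 and 1.26 CPM.

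The 8 genes took 5.75% of the reads on miRNA genes in replicate 1 and 2.80% in replicate 2, a mean of 4.28% ± 2.08 (SD, n = 2). With Mirlet7e the share was 4.70% ± 2.25. Most of these counted reads lay on genes of the first position. The 3 miR-99/100 genes summed to 34752 ± 17227 CPM, the 3 miR-125 genes to 7877 ± 3576 and the 3 let-7 genes to 4405 ± 1672 CPM (SD, n = 2 for each). The order of these sums was the same in both libraries, at 46933, 10406 and 5587 CPM in replicate 1 and at 22571, 5349 and 3222 CPM in replicate 2. Mir125b-1, Mir125b-2, Mirlet7c-1 and Mirlet7a-2 share their 5p arm with another gene, so the miR-125 and let-7 sums may be lower limits. No miR-99/100 gene does, and the part of this in the order was not tested.

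Among clusters, that of Mir99b was the highest with 27721 and 14289 CPM in replicates 1 and 2, followed by that of Mir99a with 19699 and 9065 CPM and that of Mir100 with 15506 and 7787 CPM. The order held in each library, while the means, 21005 ± 9498, 14382 ± 7519 and 11647 ± 5458 CPM (SD, n = 2), overlapped within their SD. Every cluster was lower in CPM in replicate 2, and the SDs include that fall. Their overlap therefore does not judge the order within a library. The Mir99b cluster is the only one whose 5p arms are each found in a single miRNA gene. Sums of the other clusters may be lower limits, and the part of this in the order was not tested.

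**Figure D2:**
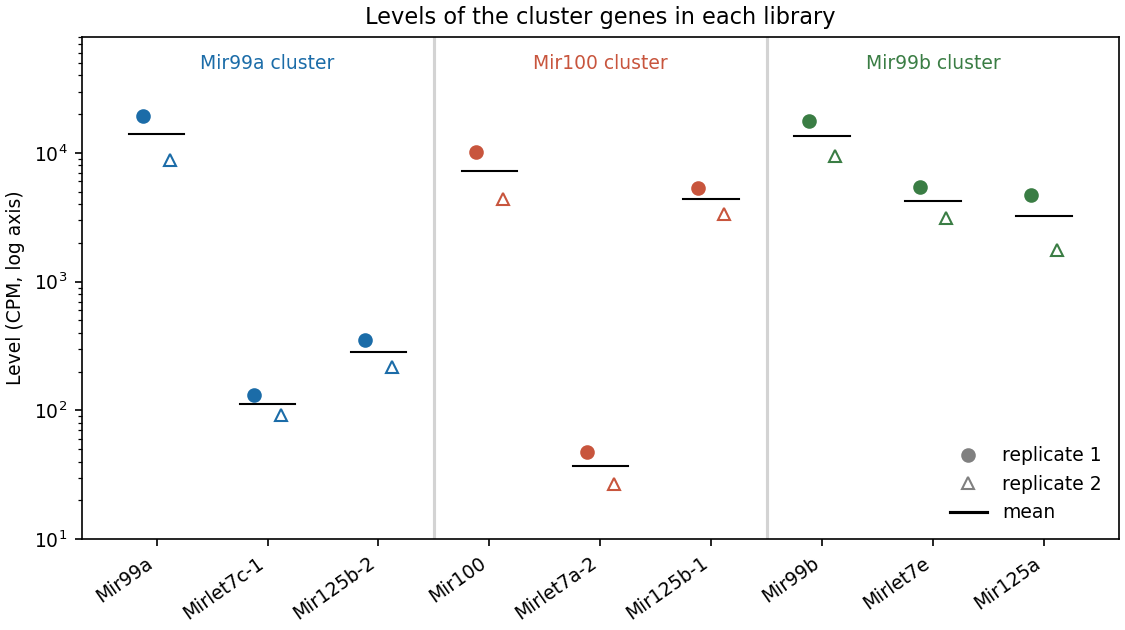
Levels of the 9 genes in CPM (log axis), grouped by cluster in genomic order, with replicate 1 as filled circles, replicate 2 as open triangles and the mean as a bar. Every gene sits lower in replicate 2 on this scale, where Mir21a takes 53.5% of the reads, and the genes run from 13987 CPM for Mir99a down to 36.9 CPM for Mirlet7a-2.

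At the miR-99/100 position, Mir99a and Mir99b were about equal and Mir100 was lower. Mir99a had 531514 reads in replicate 1 and 131597 in replicate 2, or 19215 and 8758 CPM, which made it the gene of rank 9 and rank 15. Mir99b had 486842 and 141641 reads, or 17600 and 9427 CPM, at ranks 12 and 13. Mir100 had 279895 and 65894 reads, or 10118 and 4386 CPM, at ranks 21 and 26.

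Mir99a led in replicate 1 and Mir99b in replicate 2. The ratio of Mir99b to Mir99a was 0.916 in replicate 1 (exact 95% counting interval 0.912 to 0.92) and 1.08 in replicate 2 (1.07 to 1.08), so the order of these neighbours did not hold across replicates. Such ratios are taken within a library and no library scaling changes them. Mir99a stood above Mir100 by 1.90-fold and 2.00-fold in the 2 libraries, and Mir99b above Mir100 by 1.74-fold and 2.15-fold. On the log2 scale these ratios were 0.96 ± 0.05 and 0.95 ± 0.22 (SD, n = 2). With 2 libraries an exact permutation test cannot give a p below the threshold of 0.05, so none was run on any ratio. The arms of these 3 genes occur in 1 miRNA gene each, and the miR-99a-5p and miR-100-5p letters printed above differ at a single base.

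At the miR-125 position the spread was wider. Mir125b-1 had 147738 reads in replicate 1 and 50711 in replicate 2, or 5341 and 3375 CPM. Mir125a had 130359 and 26422 reads, or 4713 and 1759 CPM. Mir125b-2 had 9759 and 3232 reads, or 353 and 215 CPM. Mir125b-1 was the highest and Mir125b-2 the lowest in both libraries.

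The counts of the 2 miR-125b genes differed by a nearly constant factor. Mir125b-1 exceeded Mir125b-2 by 15.1-fold in replicate 1 and 15.7-fold in replicate 2, a log2 ratio of Mir125b-2 to Mir125b-1 of -3.95 ± 0.04 (SD, n = 2). Both hairpins hold the same 5p arm, and how reads of that arm were assigned was not given in the sources used here. Whether the factor holds for mature miR-125b from each locus was not tested. Mir125a, with an arm of its own, was at 0.882 of Mir125b-1 in replicate 1 and 0.521 in replicate 2. It exceeded Mir125b-2 by 13.4-fold and 8.18-fold. The direction of both ratios held in each library, but the first, a log2 ratio of -0.56 ± 0.54 (SD, n = 2), was hardly larger than its spread.

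The let-7 position spanned the widest range. Mirlet7e had 149614 reads in replicate 1 and 46632 in replicate 2, or 5409 and 3104 CPM. Mirlet7c-1 had 3628 and 1380 reads, or 131 and 91.8 CPM. Mirlet7a-2 had 1303 and 402 reads, or 47.1 CPM (exact 95% counting interval 44.6 to 49.7) and 26.8 CPM (24.2 to 29.5), the lowest of the 9 genes in both libraries.

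Mirlet7e exceeded Mirlet7a-2 by 115-fold and 116-fold and Mirlet7c-1 by 41.2-fold and 33.8-fold in replicates 1 and 2. Mirlet7c-1 exceeded Mirlet7a-2 by 2.78-fold and 3.43-fold. These directions held in both libraries with SDs of 0.01 to 0.21 on the log2 scale. The let-7e-5p arm occurs in 1 miRNA gene and the let-7c-5p and let-7a-5p arms in 2 each. The counts of Mirlet7c-1 and Mirlet7a-2 may therefore be lower limits, and the factors of Mirlet7e over them upper limits. Whether the factors hold for the mature miRNAs of these loci was not tested. Across all 9 genes, the 5 with an arm of their own had mean levels of 3236 to 13987 CPM and the 4 with a shared arm 36.9 to 4358 CPM.

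**Figure D3:**
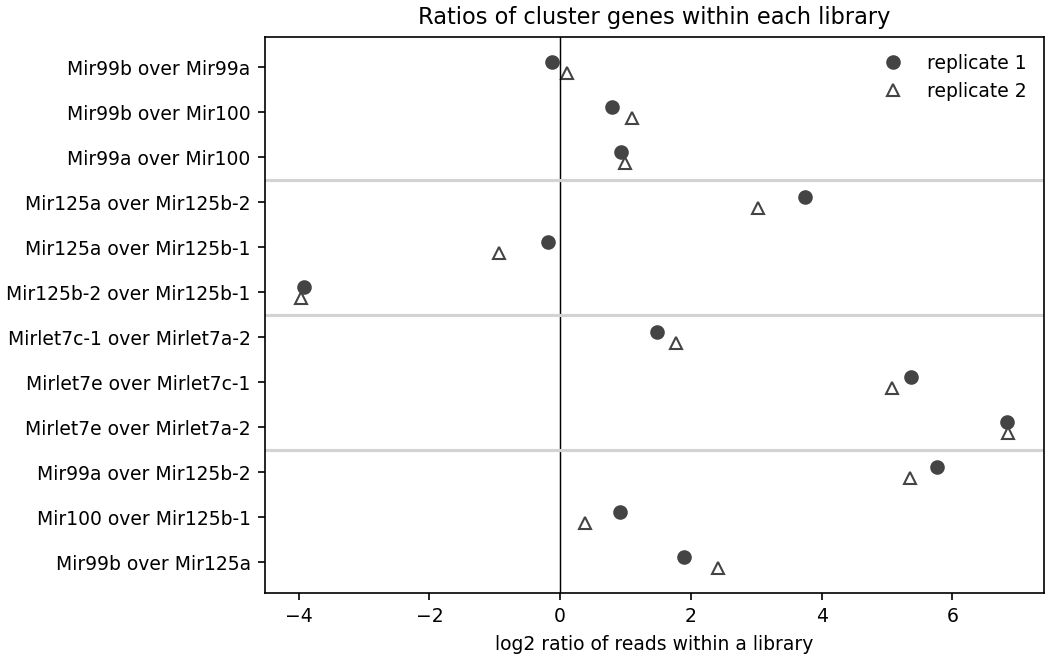
Log2 ratio of reads between pairs of cluster genes within each library, with replicate 1 as filled circles and replicate 2 as open triangles. The upper 3 groups compare the same position across clusters and the lowest group the first with the last gene of a cluster, and 11 of 12 ratios lie on the same side of 0 in both libraries, the exception being Mir99b over Mir99a.

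Within a cluster the counts of the genes were far from equal. In the Mir99a cluster, Mir99a held 97.5% (replicate 1) and 96.6% (replicate 2) of the cluster's reads, Mir125b-2 1.79% and 2.37%, and Mirlet7c-1 0.666% and 1.01%. In the Mir100 cluster, Mir100 held 65.3% and 56.3%, Mir125b-1 34.4% and 43.3%, and Mirlet7a-2 0.304% and 0.344%. The Mir99b cluster was the most even. There Mir99b held 63.5% and 66.0%, Mirlet7e 19.5% and 21.7%, and Mir125a 17.0% and 12.3%. The miR-99/100 gene was the highest in each cluster and each library. Second place went to the miR-125 gene in the Mir99a and Mir100 clusters and to the let-7 gene in the Mir99b cluster, the only one whose let-7 and miR-125 arms are each found in a single miRNA gene. In the other clusters the let-7 and miR-125 counts may be lower limits, and the shares of Mir99a and Mir100 upper limits. The part of this in the evenness was not tested.

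The first gene exceeded the last by very different factors. Mir99a stood 54.5-fold and 40.7-fold above Mir125b-2, Mir99b 3.73-fold and 5.36-fold above Mir125a, and Mir100 1.89-fold and 1.30-fold above Mir125b-1. The ratio was higher in replicate 1 in the Mir99a and Mir100 clusters and higher in replicate 2 in the Mir99b cluster. As log2 ratios these were 5.56 ± 0.30, 2.16 ± 0.37 and 0.65 ± 0.38 (SD, n = 2). Mir125b-1 and Mir125b-2 share their 5p arm, so their counts may be lower limits and the factors over them upper limits. Only Mir99b over Mir125a compares genes whose 5p arms are each found in a single miRNA gene.

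The libraries were then compared gene by gene to see whether the cluster genes moved together between replicates. Counts were scaled by edgeR's trimmed mean (TMM), which discounts genes as extreme as Mir21a and moves every log2 ratio by 0.90 against library totals. An exact binomial test, which asks only whether a difference exceeds counting noise, was adjusted by Benjamini-Hochberg over 556 genes. It called 6 of the 8 genes, against 41.5% of all genes tested. Of these, 3 were higher in replicate 2, against 24.6% of all genes, and 3 were lower, against 16.9%. With DESeq2 size factors 7 of the 8 were called, against 41.5% of all genes, and with totals that leave out Mir21a 6 were called, against 41.7%. By library totals all 8 were called, against 59.4%, and all 8 as lower, against 54.7%. With TMM scaling, the calls of the 8 genes were the same without a count filter (28.6% of all genes called), with at least 100 counts (72.6%) and on reads of either strand (40.4%). Deeply counted genes pass this test easily, and 122 of the 138 genes with a mean of at least 100 CPM were called. The median log2 ratio was 0.04 over the 8 genes and 0.09 over all tested genes.

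Mir125a, Mir100 and Mir99a were lower in replicate 2. Mir125a fell by 0.52 on the log2 scale (counting SE 0.01), which is 1.44-fold, Mir100 by 0.31 (SE 0.006) and Mir99a by 0.24 (SE 0.004). These 3 genes were lower in replicate 2 under TMM, DESeq2 size factors and library totals, with or without Mir21a, and their adjusted p was too small to be represented in the computation. Mir99b, of the same seed as Mir99a and Mir100, had a log2 ratio of -0.003 (counting SE 0.004, adjusted p = 0.67, exact binomial test), and 135 of the 138 abundant genes differed by more. Mir99b was called lower at -0.065 with DESeq2 size factors, at -0.17 with totals that leave out Mir21a and at -0.90 by library totals.

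Mirlet7c-1, Mir125b-1 and Mir125b-2 were higher in replicate 2 after TMM scaling, and all 3 turned lower by library totals. Mirlet7c-1 had a log2 ratio of 0.38 (counting SE 0.05, adjusted p = 8.21e-16, exact binomial test). Mir125b-1 had one of 0.24 (SE 0.007, adjusted p = 7.98e-214, exact binomial test) and Mir125b-2 one of 0.18 (SE 0.03, adjusted p = 2.25e-09, exact binomial test). Mirlet7a-2 did not pass, with 0.08 (SE 0.08, adjusted p = 0.509, exact binomial test), and an interval of -0.08 to 0.24. Mirlet7e passed with a log2 ratio of 0.10 (SE 0.008, adjusted p = 3.72e-35, exact binomial test), and turned lower by library totals with or without Mir21a.

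The genes of a cluster did not move as a block. After TMM scaling, in the Mir99a cluster Mir99a was lower and both later genes were higher, in the Mir100 cluster Mir100 was lower and Mir125b-1 higher, and in the Mir99b cluster Mir125a was lower with Mir99b near 0. The call of Mir125b-2 was lost with totals that leave out Mir21a (log2 ratio 0.01, adjusted p = 0.825, exact binomial test), and by library totals every gene of the 3 clusters was lower. The ratio of Mir99a to Mir100, of different clusters, differed only 1.05-fold between libraries, and that of Mir125b-2 to Mir125b-1 only 1.04-fold. By contrast the ratio of Mir125a to Mir125b-1 differed 1.69-fold. How far such ratios differ for other gene pairs was not tested. For single genes, the median absolute log2 ratio between libraries was 0.29 over the 138 abundant genes. Of these, 42 differed by more than Mir125a. The coefficient of variation that edgeR estimated in common for all genes was 34.4%. The share of reads that mapped to several places, 33.4% and 22.8%, moved between the libraries too, and its part in the ratios of genes with a shared arm was not tested.

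**Figure D4:**
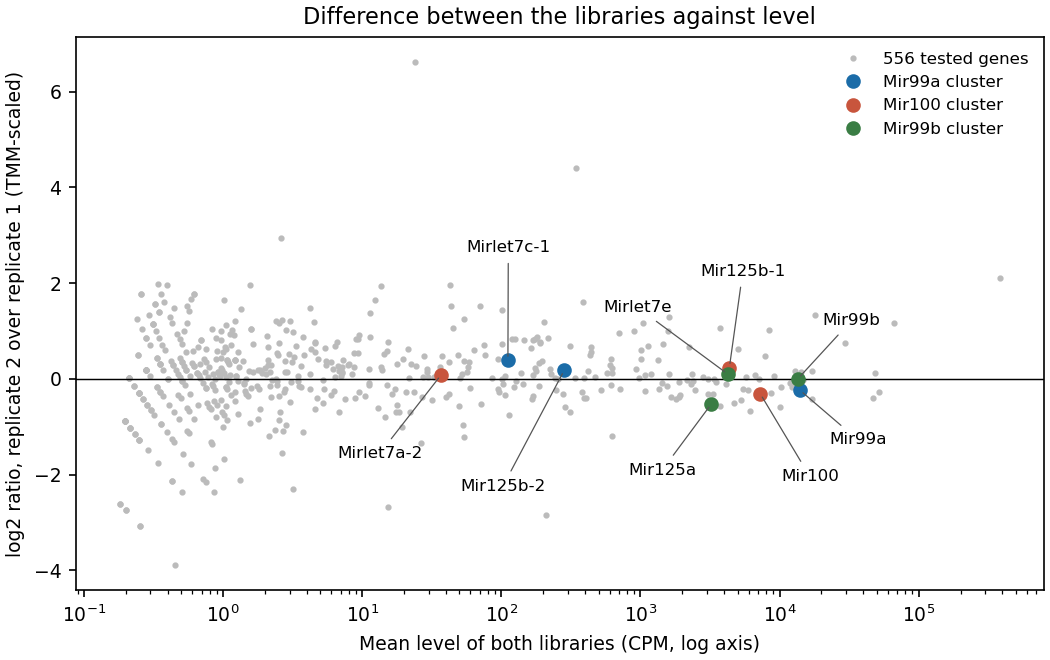
TMM-scaled log2 ratio of replicate 2 over replicate 1 against the mean level in CPM (log axis), for 556 tested genes in grey and the cluster genes in colour. The cluster genes lie between -0.52 for Mir125a and 0.38 for Mirlet7c-1, and by library totals all of them would lie below 0.

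Other genes with the same seeds place these levels in their families. No further gene of the RefSeq table has the miR-99/100 seed, so the 3 genes above are the whole seed family there. Their wider relatives of the Hox clusters, Mir10a and Mir10b, whose seed differs, had 14.9 and 7.45 CPM and 0.325 and 0.266 CPM. For the miR-125 seed, 3 further genes matched. Mir351, a miRNA of the X-linked Mir322 cluster with the 5p arm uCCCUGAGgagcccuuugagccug, had 762 and 478 CPM, and Mir6367 and Mir6394 had no read in either library. The cluster genes thus held 93.2% and 91.8% of the reads on genes with this seed. Mir351 was higher in replicate 2 by 0.23 on the log2 scale (counting SE 0.02, adjusted p = 8.06e-29, exact binomial test), near the 0.24 of Mir125b-1, and like it was lower there in CPM.

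The let-7 seed family has 14 genes in these tables. Of them, the 3 in the clusters held 4.30% (replicate 1) and 5.80% (replicate 2) of the family's reads. The counts of Mirlet7c-1 and Mirlet7a-2 may be lower limits, as their 5p arms are each found in a second gene. The same holds outside the clusters for Mirlet7c-2 and Mirlet7a-1, and for Mirlet7f-1 and Mirlet7f-2, which share an arm. Whether these shares are too low or too high is therefore not known. The 11 others summed to 88361 ± 50940 CPM (SD, n = 2), led by Mirlet7i at 46712 ± 27975, Mirlet7g at 17189 ± 10364 and Mirlet7b at 11880 ± 5566 CPM. Mirlet7d, Mir98, Mirlet7f-2, Mirlet7f-1 and Mirlet7c-2 also had a mean of at least 100 CPM. After TMM scaling, 2 of the 10 tested genes outside the clusters were higher in replicate 2, against 24.6% of all genes, and 7 were lower, against 16.9%. Deeply counted genes are called more often. Of the 138 genes with a mean of at least 100 CPM, 69 were called higher and 53 lower. The difference between let-7 genes inside and outside the clusters was not tested. The copies that carry the same 5p arm as a cluster gene can be set beside it. Mirlet7c-2 had 107 and 94.5 CPM beside 131 and 91.8 for Mirlet7c-1, and Mirlet7a-1 had 42.0 and 47.3 CPM beside 47.1 and 26.8 for Mirlet7a-2. In replicate 2 Mirlet7a-1 was thus the higher of its pair, and its TMM-scaled log2 ratio between libraries was 1.07 against 0.08.

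**Figure D5:**
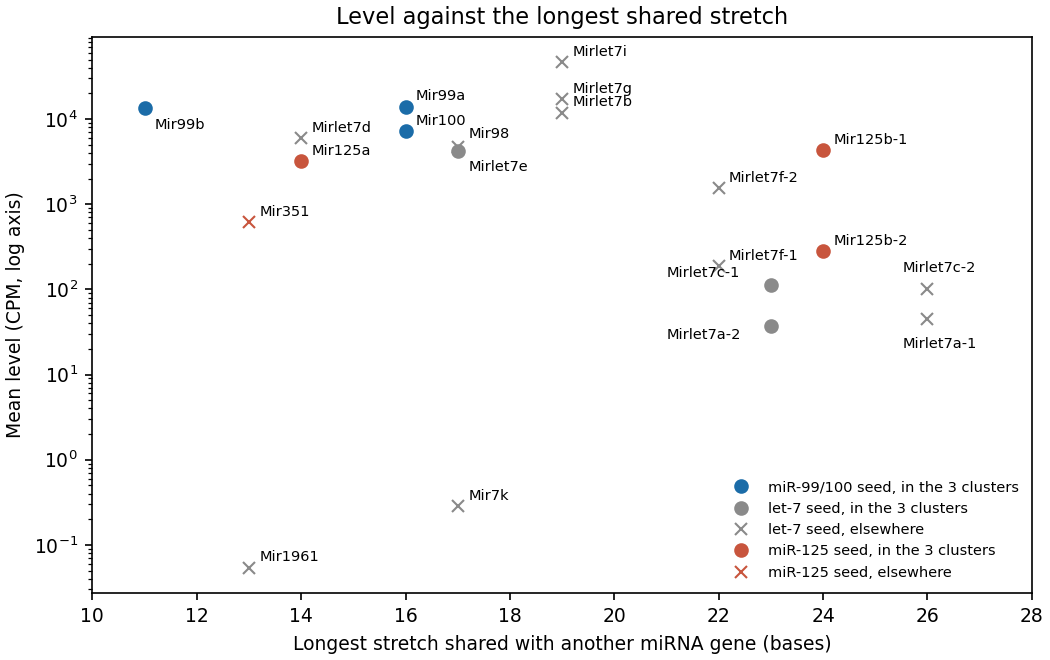
Mean level in CPM (log axis) against the longest stretch a hairpin shares with a non-overlapping miRNA gene, for the genes of the 3 seeds that had reads, with cluster genes as circles and others as crosses. The 4 cluster genes with stretches of 23 or 24 bases include the 3 lowest of the clusters, and Mir125b-1 at 4358 CPM is the exception.

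The shared stretch was 16 bases for Mir99a and Mir100, 11 for Mir99b, 14 for Mir125a and 17 for Mirlet7e. It was 23 for Mirlet7c-1 and Mirlet7a-2 and 24 for Mir125b-1 and Mir125b-2. These points share libraries and the choice of families, and are given as a description. By level over the 2 libraries, with the distance taken over log2(CPM + 1), the genes nearest to Mir99a were Mir99b and Mir29a, those nearest to Mir99b were Mir23b and Mir29a, and those nearest to Mir100 were Mir322 and Mir155. With 2 libraries of 1 group, likeness here is of level only.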

How the data were processed

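The values are read counts per miRNA gene for either strand, the gene's strand and the opposite strand, as deposited by the authors. The deposited readme files name mm10 and GENCODE M21, and the labels' protocols point to adapter trimming. An aligner, a counter or a rule for multi-mapping reads was not given in the sources used here. Rows that name no gene, 49.7% (replicate 1) and 38.8% (replicate 2) of all reads, stayed out of totals and tests.

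Gene-strand counts were used. Levels are CPM with the mean and SD of 2 libraries. Library differences were tested over all genes with at least 10 counts by an exact two-sided binomial test (scipy 1.17.1) after TMM scaling (edgeR 4.0.16, R 4.3.3), with a threshold of 0.05 and a prior count of 0.5 in log2 ratios. edgeR's quasi-likelihood test has no contrast to fit in 1 group. On simulated counts of 556 genes for this comparison, 71 of 98 genes raised 2-fold, 56 of 92 lowered to 0.5-fold and 4 of 336 unchanged genes were called, and 0 of 532 when none was changed. The simulated counts held counting noise (Poisson) only, so few calls of unchanged genes were built into the setting. Variation between real libraries was left out, and the simulation does not measure how often it leads to calls. A count of 0 allows 3 counts, 0.108 and 0.2 CPM. Intervals are exact (Clopper-Pearson) and, like floors, cover counting error only, since reads carry no stated molecular identifier and may be copies of 1 molecule. Arms were searched on both strands of the 2202 GENCODE hairpins, since no genome sequence was used here. Arm sequences are from RefSeq (GRCm38.p6), where all 9 genes were matched.

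Named genes are the 9 cluster genes, seed relatives with a mean CPM of at least 100 beside Mir10a and Mir10b, and the 2 genes nearest in level to each cluster's leading gene. Relatives below that level were named after their values were seen. Genes and lists were chosen with earlier results of these data known. The alternatives tried were scaling by DESeq2 1.42.0 or by totals alone, no or a higher count filter, either-strand counts and each library alone. Totals without Mir21a for the tests, and reads per hairpin base, were added after the data were seen.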

Additional observations from a re-analysis of the deposited data

Results flagged for a closer look

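Reads outside the gene-strand counts were flagged in 2 places, and whether those that mapped to several places belong to these genes was not tested. Reads that mapped to several places numbered 18382947 in replicate 1 and 5599235 in replicate 2. The tables do not say which genes they fit. Gm25927, an annotated miRNA gene on the minus strand over Mirlet7e, had 149614 reads on its opposite strand in replicate 1 and 46632 in replicate 2. These numbers equal the gene-strand counts of Mirlet7e in each library, and Gm25927 had no read on its own strand. The reads are thus those of Mirlet7e, counted again for the gene that overlaps it, and are no further signal. They were 17.7% and 19.1% of all opposite-strand reads. In the either-strand column both genes stand at 0. No control libraries were analysed here.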

How the results depend on the processing

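As CPM of totals without Mir21a, the summed levels were 22552 CPM for the Mir99a cluster, 18453 for the Mir100 cluster and 33384 for the Mir99b cluster. Each was higher than by library totals by more than the SD. Smaller totals raise every level by construction, and such scaling cannot change the order within a library. By library totals the log2 ratio of replicate 2 over replicate 1 turned negative for Mirlet7c-1 at -0.51, Mir125b-2 at -0.71, Mirlet7a-2 at -0.81, Mir125b-1 at -0.66 and Mirlet7e at -0.80, and all 8 listed genes were called lower. By totals without Mir21a it was -0.088 for Mirlet7a-2 and -0.074 for Mirlet7e, and 0.01 and no longer called for Mir125b-2 (adjusted p = 0.825, exact binomial test). Mir99b passed the test at -0.065 with DESeq2 size factors, -0.17 without Mir21a and -0.90 by library totals. All genes split into 137 higher and 94 lower with TMM, 26 and 304 by library totals and 94 and 138 by totals without Mir21a.

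Per hairpin base, 3 log2 ratios moved beyond their SD, to 1.26 for Mir99a over Mir100, -3.83 for Mir125b-2 over Mir125b-1 and 6.90 for Mirlet7e over Mirlet7a-2, and all 12 kept their direction. Counted on either strand, Mirlet7e has 0 reads, so its ratios could not be formed there. Other count filters changed no direction and no call of the 8 genes. The arm search gave 4 of 18 arms in more than 1 gene, also without the last 2 bases of each arm. Without replicate 1, the summed level of the Mir99a cluster was 9065 CPM against a mean of 14382. With 1 group of 2 libraries, the precision of every level is limited by the number of libraries, not by depth.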
